A study of Mus musculus with 55 samples.

Results

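PPARα-null hearts (KO) were compared with wild-type hearts (WT) at baseline, after a control gavage that held neither fat nor a drug. The comparison rests on 8 of the 55 arrays of the series, 5 from KO hearts and 3 from WT hearts. They were chosen by their genotype and treatment labels, and 1 array holds the RNA of 1 heart. The KO mice were PPARalpha -/- on the 129S4/SvJae substrain and the WT mice were 129S1/SvImJ, all males of Sv129 background, so loss of the receptor and substrain cannot be told apart. All mice had a run-in of 2 weeks on a modified AIN76A diet with olive oil in place of corn oil, then a fast of 4 h. Each control mouse received 400 µL of 0.5% carboxymethyl cellulose by gavage, although another label field gives the treatment as none. Hearts were taken 6 h later. The age is given both as 9 to 12 weeks and as 2 to 6 months. The other arrays, 25 from KO and 22 from WT hearts, followed gavage with triolein, trilinolein, trilinolenin, tridocosahexaenoin or the PPARα agonist Wy14643, and they are used here to see whether a baseline difference was also present in hearts that share no array with it.

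PPARα is a nuclear receptor that binds fatty acids and, with its partner RXR, activates genes at DNA elements called DR1. In the heart, which gains most of its ATP from fat, it is known for its hold on fatty acid uptake, the carnitine shuttle, mitochondrial and peroxisomal beta-oxidation and lipid droplets. A fatty acid is activated to acyl-CoA, carried into mitochondria on carnitine and shortened there, and the electrons pass to the respiratory chain through the electron transfer flavoprotein.

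The arrays measured 18194 genes by an unshared probe set. Of these, 8238 were tested, because their linear signal was over 20 in 3 or more of the 55 arrays. Levels are log2 array signals, a difference is KO minus WT on the log2 scale, and its ± is the standard error of the fit. Calls were made in limma at an adjusted p below 0.05, with Benjamini-Hochberg adjustment over all 8238 genes. A level under 4.32 lies below the brightness minimum, and where a group mean does so the size of a difference is not exact. The array medians of the 8 hearts lay between 2.55 and 2.59, and KO and WT arrays correlated across probe sets at 0.986 to 0.990, against 0.989 to 0.994 among KO and 0.992 to 0.993 among WT arrays. Summed signals of cardiomyocyte markers were 17.2 to 17.3 in KO and 17.2 to 17.3 in WT hearts. Those of 9 atrial markers, 8 of them bright, were 14.07 and 14.17 in KO hearts 4 and 5, 12.47 to 13.00 in the other KO hearts and 12.77 to 13.27 in WT hearts. Pericyte markers summed to 12.40 to 12.52 in KO and 12.59 to 12.67 in WT hearts, with 0 of 4 called in limma (2 at an unadjusted p under 0.05), and smooth muscle markers to 10.05 to 11.03 in KO and 10.27 to 10.70 in WT hearts. In a bulk sample, fewer cells of a type and less RNA per cell cannot be told apart.

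**Figure D1:**
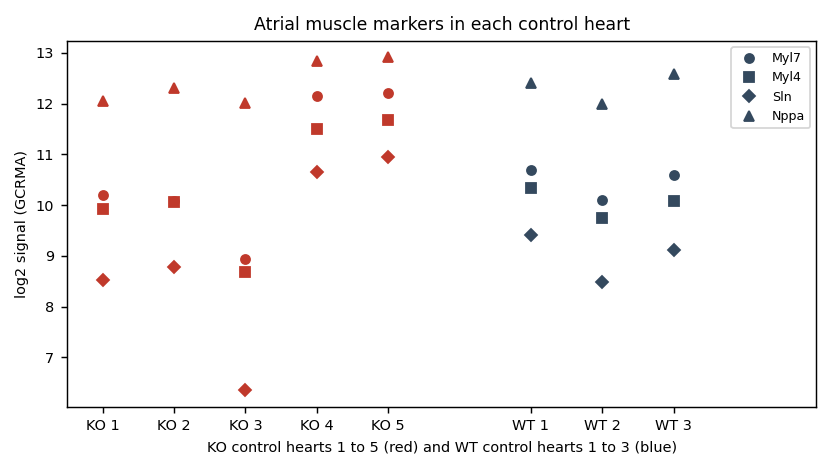
Log2 levels of atrial muscle markers in each of the 5 KO and 3 WT control hearts, 1 point per heart and gene. KO hearts 4 and 5 stand above the other hearts for Myl7, at 12.15 and 12.22.

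In KO control hearts 170 genes were lower (2.06% of those tested) and 128 were higher (1.55%), 298 in all (3.62%). The baseline counts of called genes by list below are to be read against these shares. A difference of at least 2-fold was called for 53 genes (0.643%), of which 40 were lower and 13 higher in KO. The KO and WT arrays did not overlap for 161 of the 170 lower and 109 of the 128 higher genes, and this held for 10.6% of all tested genes. Without KO hearts 4 and 5 the count was 261. Without WT heart 2 it was 193, and with the KO and WT control arrays alone in the fit it was 190. At an unadjusted p under 0.05 there were 1082 genes (13.1% of those tested), the share against which unadjusted counts below are to be read. Of the 102 called genes among those named by the rule or after their values were seen, 32 were not called with the control arrays alone and 17 not without KO hearts 4 and 5. Hadha, Fabp3, Prkcq, Ddah1 and Cidea lost their call with the control arrays alone and under no other alternative.

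Ppara itself was still detected. Its levels were 7.50, 7.36, 7.40, 7.39 and 7.61 in KO hearts, against 8.00, 8.07 and 8.46 in WT hearts. No KO heart reached the lowest WT heart, and the difference was -0.73 ± 0.13 (limma adjusted p = 0.000132). All 3 bright probe sets of the gene were lower in KO, by -0.73, -1.29 and -0.71. Where they lie relative to the deleted part of the gene is not known here, so they do not check the deletion. The 10 nearest tested neighbours of Ppara on its chromosome held no gene called in limma (2 of 10 at an unadjusted p under 0.05, against 13.1% of all tested genes). The widest among them was the gene model Gm19277, named after its values were seen, at 0.91 ± 0.30 (limma adjusted p = 0.0812), with 5.86, 5.49, 5.69, 4.89 and 5.63 in KO hearts, against 4.53, 4.42 and 4.88 in WT hearts. After the other gavages Gm19277 (1.35, limma adjusted p = 3.3e-13), Cerk (0.53), Gramd4 (-0.16) and 5031439G07Rik (-0.15) were called, against 38.3% of all tested genes. The remaining neighbours were not called there, and the cause was not tested. The other PPAR and RXR genes had no gap like that of Ppara at baseline. Ppard, the isoform of the same family found in most tissues, differed by 0.16 ± 0.14, the receptor partners Rxra and Rxrg by 0.04 ± 0.10 and 0.18 ± 0.09, and the coactivator Ppargc1a by 0.17 ± 0.20, none of them called. Ppargc1a had its highest levels, 9.28 and 9.80, in KO hearts 4 and 5, and without those hearts its difference was -0.04. Pparg (0.21 ± 0.29) and Rxrb (0.10 ± 0.12) were not called at baseline either. After the other gavages, where 38.3% of all tested genes were called, Pparg (0.98) and Ppargc1a (0.44) were higher in KO (limma adjusted p = 1.86e-09 and 9.59e-06). Ppard, Rxra, Rxrb and Rxrg were not called there.

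The widest falls in KO hearts were in genes of lipid handling and in several genes of other pathways. Plaat1, a phospholipase and acyltransferase, had 3.07, 3.64, 3.40, 2.79 and 3.26 in KO hearts, against 7.71, 7.43 and 7.34 in WT hearts. Plin5, a coat protein of lipid droplets in tissues that burn fat, had 6.88, 6.83, 7.04, 7.04 and 6.39 in KO hearts, against 10.00, 10.03 and 10.07 in WT hearts. The groups of both genes lay far apart: Plaat1 fell by 4.26 ± 0.18, an inexact size since KO levels were below the minimum, and Plin5 by 3.20 ± 0.21 (limma adjusted p = 1.46e-23 and 1.01e-16). Plin5 was thus 9.17-fold lower in KO. Fah, the last enzyme of tyrosine breakdown, had 3.39 to 3.76 in KO hearts, against 6.30 to 6.55 in WT hearts. Fbp2, the muscle fructose bisphosphatase, had 3.12 to 3.41 in KO hearts, against 5.60 to 6.25 in WT hearts. Neither pair of ranges came near to overlap, and all KO levels of both genes were below the minimum. The galectin gene Lgals4 (-2.53 ± 0.17) and P3h4, a protein of collagen lysine modification (-2.17 ± 0.22), were dim in KO hearts in the same way, while Prrg1 (-1.93 ± 0.22) and Plbd1 (-1.76 ± 0.19) kept KO means above the minimum. Acta1, the skeletal alpha-actin, had 9.69 to 10.39 in KO hearts, against 11.62 to 11.98 in WT hearts, a difference of -1.79 ± 0.30.

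**Figure D2:**
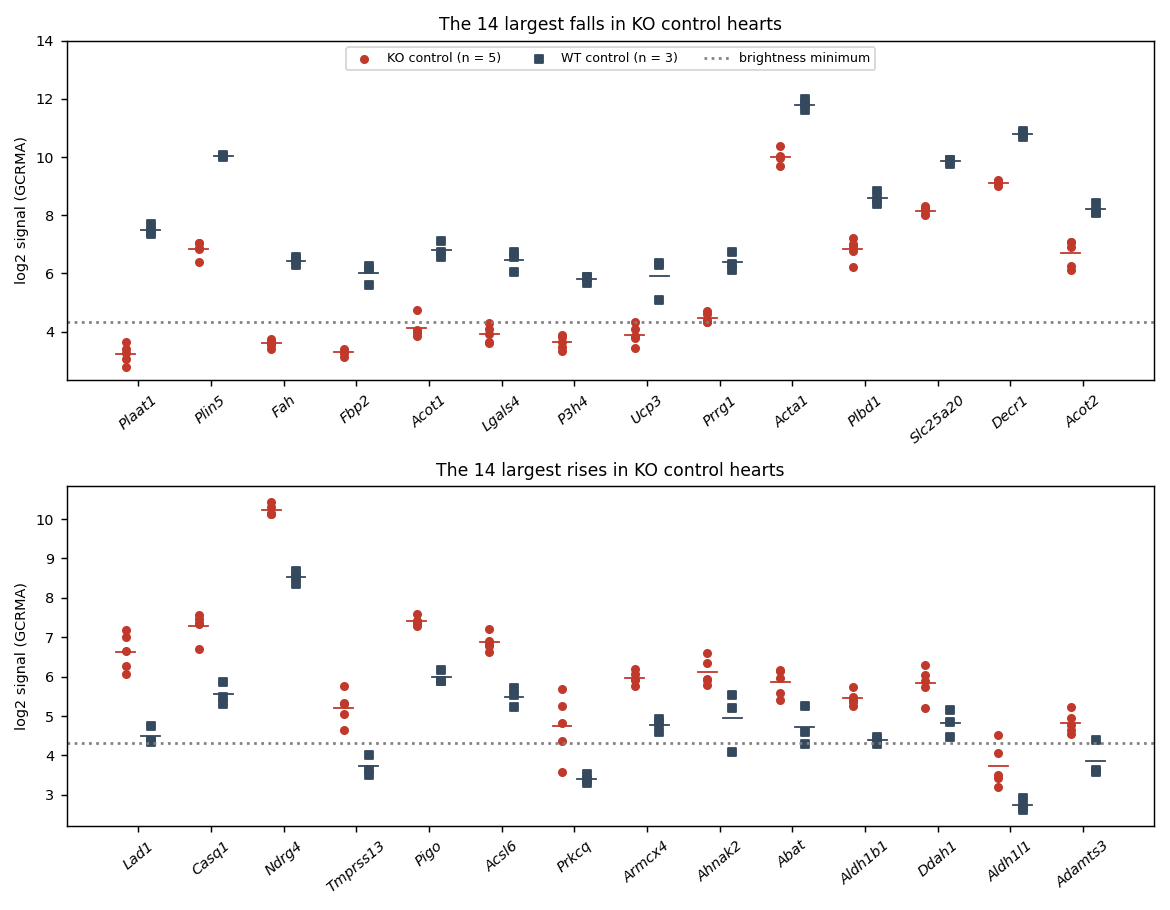
Log2 levels of genes with large differences in each control heart, KO hearts left of WT hearts, 1 point per heart with the brightness minimum marked. The genes are the 14 largest falls and 14 largest rises among called genes picked for having no overlap between the groups. Clone and model names were left out. Plin5 lies at 6.39 to 7.04 in KO and 10.00 to 10.07 in WT hearts.

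Fatty acid entry and activation gave calls in both directions. Of 16 tested genes of uptake and activation 4 were lower and 2 higher in KO, with a median difference of 0.03, against 0.007 over all tested genes. Slc27a1, a fatty acid transporter and acyl-CoA synthetase, had 7.44, 7.25, 7.14, 6.97 and 7.01 in KO hearts, against 7.96, 8.00 and 7.59 in WT hearts. By this probe set, its brightest, the groups did not overlap, and Slc27a1 fell by 0.68 ± 0.14 (limma adjusted p = 0.00089). Its other bright probe set stood at -0.77 with overlap, with KO heart 2, at 6.13, above WT hearts 2 and 3, at 5.98 and 5.95. Smaller falls were seen for the fatty acid receptor and transporter Cd36 (-0.27 ± 0.06), the heart fatty acid binding protein Fabp3 (-0.25 ± 0.04) and the lipoprotein receptor Vldlr (-0.30 ± 0.09). Without WT heart 2 the list had 2 calls downward, with Cd36 and Vldlr lost. Cd36 was also not called without KO hearts 4 and 5 or with the control arrays alone, Fabp3 not with the control arrays alone, and Vldlr not when KO heart 3, 4 or 5, KO hearts 4 and 5 together, or WT heart 1 or 3 was left out, or with no filter on dim genes. Acsl6, an acyl-CoA synthetase best known from brain, rose, with 6.83, 6.77, 7.21, 6.91 and 6.63 in KO hearts, against 5.22, 5.71 and 5.53 in WT hearts (1.38 ± 0.16). Fabp4, the fatty acid binding protein of endothelium and fat, was 13.47 to 13.62 in KO hearts, against 13.15 to 13.19 in WT hearts (0.36 ± 0.08). Fabp4 is 1 of 9 endothelial markers and the only one of them called. Their median difference was -0.002, with 5 below and 4 above 0, and their median in single hearts relative to the WT mean was -0.13 to 0.08 in KO and -0.01 to 0.02 in WT hearts. Their summed signal, most of which is Fabp4, was 13.74 to 13.86 in KO and 13.46 to 13.49 in WT hearts.

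Genes of the carnitine shuttle that were called were all lower in KO hearts. Of 10 tested genes of the shuttle and of malonyl-CoA control 5 fell and 0 rose, with a median of -0.42, and the count was 5 under every alternative run. Slc25a20, the carnitine-acylcarnitine carrier of the inner membrane, had 8.19, 8.02, 8.24, 8.31 and 8.03 in KO hearts, against 9.91, 9.91 and 9.77 in WT hearts. It was 3.27-fold lower in KO (-1.71 ± 0.09, limma adjusted p = 7.13e-20). Cpt2, which returns the acyl group to CoA inside mitochondria, had 9.42 to 9.73 in KO hearts, against 10.83 to 10.90 in WT hearts (-1.25 ± 0.07). Slc22a5, the carnitine transporter of the cell membrane, had 6.33 to 6.90 in KO hearts, against 7.45 to 7.88 in WT hearts (-1.0 ± 0.15). Mlycd, which degrades malonyl-CoA, the inhibitor of fatty acid entry into mitochondria, fell by 0.80 ± 0.15. The fifth was Aldh9a1, an enzyme of carnitine synthesis chosen after its values were seen (-0.60 ± 0.10). Not called were Cpt1a (-0.23 ± 0.18), Crat (-0.11 ± 0.05), Acaca (0.12 ± 0.13), Acacb (-0.07 ± 0.09) and Tmlhe (-0.06 ± 0.16). Cpt1b had no probe set of its own or was too dim, and was not tested here.

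Mitochondrial beta-oxidation genes that were called were all lower in KO hearts. Of 17 tested genes 11 fell and 0 rose, with a median of -0.43 and 13 genes without overlap between the groups. In single hearts the median of the list, relative to the WT mean, lay between -0.52 and -0.28 in KO and between -0.08 and 0.04 in WT hearts. Decr1, which prepares polyunsaturated acyl-CoA for oxidation, had 9.11, 9.20, 9.17, 9.13 and 9.01 in KO hearts, against 10.79, 10.90 and 10.70 in WT hearts (-1.67 ± 0.07, limma adjusted p = 3.91e-24). Ech1, a dienoyl-CoA isomerase, fell by 1.20 ± 0.07. Among the acyl-CoA dehydrogenases, falls were 0.86 ± 0.06 for the very-long-chain enzyme Acadvl, 0.43 ± 0.05 for the medium-chain enzyme Acadm and 0.80 ± 0.10 for the short-chain enzyme Acads. The long-chain enzyme Acadl (-0.14 ± 0.04, limma adjusted p = 0.0521) was not called. Nor were Acad9 (-0.02 ± 0.10), Acad10 (0.09 ± 0.16) and Acad11 (-0.20 ± 0.06). Of the trifunctional protein, the alpha subunit Hadha fell by 0.53 ± 0.09. Its beta subunit Hadhb (-0.33 ± 0.09), the thiolase Acaa2 (-0.63 ± 0.09) and the isomerase Eci2 (-0.52 ± 0.05) were chosen after their values were seen. The call of Hadhb was lost when KO heart 2 or 5 or WT heart 1 or 3 was left out. The fit with the control arrays alone called 8 of the 17, and without KO hearts 4 and 5 the count was 10.

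Of 6 tested genes of the electron transfer flavoprotein list, through which electrons leave this pathway, 2 fell and 0 rose (median -0.20). Etfdh, the membrane dehydrogenase that hands them to ubiquinone, had 10.71, 10.71, 10.77, 10.75 and 10.58 in KO hearts, against 11.81, 11.85 and 11.70 in WT hearts (-1.08 ± 0.05, limma adjusted p = 3.39e-21). Etfb, a subunit of the flavoprotein, differed by -0.24 ± 0.06 and was not called without WT heart 2. Limma called 0 of 70 genes of oxidative phosphorylation (3 at an unadjusted p under 0.05, which 13.1% of all tested genes had), 0 of 22 of the tricarboxylic acid cycle (4) and 0 of 73 of the mitochondrial ribosome (1), with medians of 0.02, 0.05 and 0.02.

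**Figure D3:**
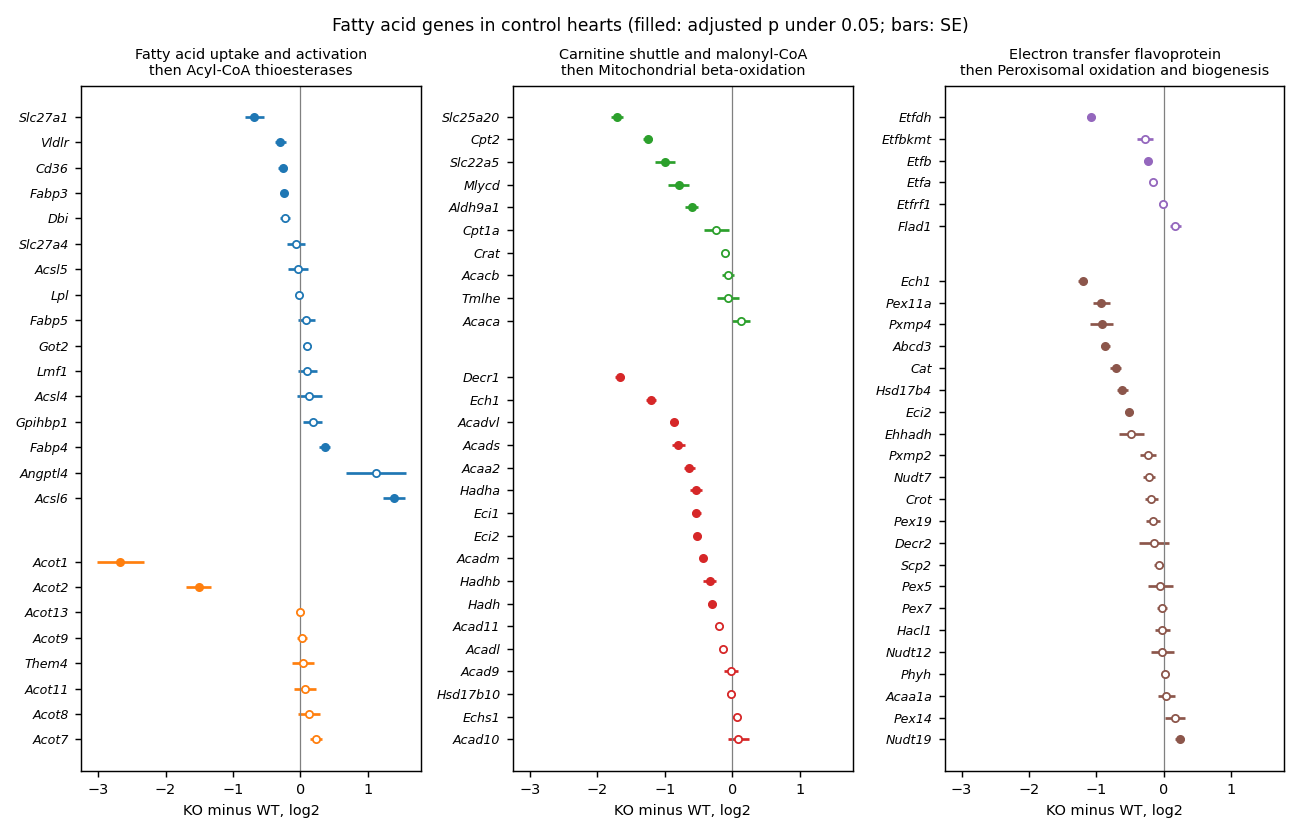
Difference between KO and WT control hearts (log2, KO minus WT, with standard error) for genes of fatty acid use. Slc25a20 and Decr1 lie lowest among those of the shuttle and of beta-oxidation, at -1.71 and -1.67.

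Acyl-CoA can also be cleaved or burned in peroxisomes. Of 8 tested thioesterases 2 fell. Acot1, the cytosolic enzyme, had 4.73, 3.85, 3.94, 4.02 and 4.06 in KO hearts, against 6.73, 7.10 and 6.56 in WT hearts. Its mitochondrial relative Acot2 had 6.25, 7.09, 7.09, 6.12 and 6.92 in KO hearts, against 8.08, 8.42 and 8.11 in WT hearts. The groups of neither gene overlapped, and the differences were -2.67 ± 0.35, inexact because the KO mean was dim, and -1.51 ± 0.19. These paralogs are close in sequence, and whether their probe sets respond to each other's transcript was not tested. Of 22 peroxisomal genes 7 fell and 1 rose (median -0.17), with Ech1 and Eci2 counted here and under beta-oxidation. Falls were 0.93 ± 0.12 for the division factor Pex11a, 0.92 ± 0.17 for the membrane protein Pxmp4 and 0.87 ± 0.07 for the acyl-CoA importer Abcd3. The bifunctional enzyme Hsd17b4 fell by 0.62 ± 0.09, and the peroxisomal thiolase Acaa1a differed by 0.03 ± 0.13 without a call; both were chosen after their values were seen. Cat, catalase, had 9.84 to 10.09 in KO hearts, against 10.59 to 10.70 in WT hearts (-0.72 ± 0.08). Ephx2, the soluble epoxide hydrolase, which clears fatty acid epoxides, fell by 1.09 ± 0.06.

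Genes of fat storage were called mostly downward, but the medians of their lists lay near that of all tested genes (0.007). They were -0.05 for lipid droplets and lipolysis and -0.03 for triglyceride and phospholipid synthesis. With the control arrays alone the droplet list had 2 calls. Of 14 genes of lipid droplets and lipolysis 4 fell and 0 rose: Plin5, the droplet-associated dehydrogenase Hsd17b11 (-1.17 ± 0.11), Cidea, which joins droplets (-0.65 ± 0.13), and Fitm2, which helps them form (-0.34 ± 0.10, not called when KO heart 5 or any WT heart was left out). No bright white adipocyte marker was found in these hearts. The 5 brown adipocyte markers summed to 12.81 to 12.90 in KO and 12.88 to 12.90 in WT hearts. Of these markers 3 were bright, and 1 was called lower. Of 23 genes of triglyceride and phospholipid synthesis 6 fell, Plaat1 among them, and 1 rose. Gpam, which adds the first fatty acid to glycerol phosphate, had 9.68 to 9.92 in KO hearts, against 10.92 to 11.23 in WT hearts (-1.28 ± 0.08, limma adjusted p = 3.6e-17). Dgat2, of the final step, fell by 0.69 ± 0.16, and Gpat3 by 0.66 ± 0.16, the last not called without WT heart 2. Lpin1, a phosphatidate phosphatase, was higher by 0.34 ± 0.10 and was not called when any of KO hearts 3, 4 and 5 or any WT heart was left out. Of 20 genes of lipogenesis, malic enzyme Me1 fell by 0.89 ± 0.09 and Tecr, of fatty acid elongation, rose by 0.27 ± 0.07. The groups of Tecr overlapped, with KO hearts from 11.66 and WT hearts up to 11.74. The call of Tecr was lost without KO heart 1, 3 or 4 or WT heart 2 or 3. Angptl4, an inhibitor of lipoprotein lipase, had 7.79, 6.87, 6.94, 7.11 and 6.89 in KO hearts, against 6.25, 6.46 and 5.30 in WT hearts. The groups did not overlap, but the WT hearts were spread and the difference of 1.12 ± 0.44 was not called (limma adjusted p = 0.211).

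Of 29 mitochondrial carriers 3 fell and 0 rose, Slc25a20 among the falls. Ucp3, an uncoupling protein that is a common marker of PPARα activity in muscle, had 4.32, 3.78, 4.09, 3.85 and 3.42 in KO hearts, against 6.38, 6.30 and 5.09 in WT hearts. WT heart 3 was the lowest of its group and still above all KO hearts; the difference was -2.03 ± 0.31, inexact for the dim KO mean. Slc25a22, a glutamate carrier, fell by 1.22 ± 0.17. Falls of over 2-fold outside the lists, in genes chosen after their values were seen, included those of Tesc, a calcium-binding protein (-1.36 ± 0.09), Retsat, which saturates retinol (-1.27 ± 0.12), Coq3, of ubiquinone synthesis (-1.25 ± 0.11), and the immunoglobulin superfamily gene Igsf23 (-1.29 ± 0.24).

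The letters of the promoters were searched for the DR1 element that PPARα and RXR are known to bind, written AGGTCANAGGTCA, on both strands of the window from 250 bases before to 50 after each RefSeq gene start (GRCm38.p6). With up to 1 mismatch it was found for 1 of 140 genes lower in KO that had a window (0.714%, exact binomial 95% interval 0.0181 to 3.92), for 0 of 100 higher genes, for 28 of 6761 tested genes (0.414%) and for 174 of all 27025 windows (0.644%). With up to 2 mismatches the shares were 7.14% of lower (3.48 to 12.7), 1.0% of higher, 3.31% of tested and 4.4% of all genes. For the 3 genes that fell at least 2-fold and held such a match, the first 280 bases of the window, up to 30 bases past the start, are printed to show where in a promoter of a lower gene the letters lie, a choice made after the matches were seen. Capitals mark the match, on the strand of the gene, and a match is a description of letters and not evidence of binding. The printed Igsf23 stretch lies at chr7:19950714-19950993 on the minus strand, holds the element without mismatch on the opposite strand and starts the match at -72 from the gene start. That of Ucp3 lies at chr7:100472741-100473020 on the plus strand, with 2 mismatches and the match at -51. That of Slc25a20 lies at chr9:108661886-108662165 on the plus strand, with 2 mismatches and the match at 6, just past the start.
Igsf23: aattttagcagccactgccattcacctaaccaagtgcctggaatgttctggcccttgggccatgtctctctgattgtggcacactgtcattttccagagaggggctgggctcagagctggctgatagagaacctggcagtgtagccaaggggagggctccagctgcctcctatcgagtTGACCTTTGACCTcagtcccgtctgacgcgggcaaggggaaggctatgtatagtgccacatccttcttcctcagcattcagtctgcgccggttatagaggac
Ucp3: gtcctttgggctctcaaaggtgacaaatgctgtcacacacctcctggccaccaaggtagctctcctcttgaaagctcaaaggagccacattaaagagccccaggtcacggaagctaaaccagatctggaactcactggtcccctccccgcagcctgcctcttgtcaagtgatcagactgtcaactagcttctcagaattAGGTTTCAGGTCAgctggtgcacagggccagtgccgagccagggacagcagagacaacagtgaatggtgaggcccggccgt
Slc25a20: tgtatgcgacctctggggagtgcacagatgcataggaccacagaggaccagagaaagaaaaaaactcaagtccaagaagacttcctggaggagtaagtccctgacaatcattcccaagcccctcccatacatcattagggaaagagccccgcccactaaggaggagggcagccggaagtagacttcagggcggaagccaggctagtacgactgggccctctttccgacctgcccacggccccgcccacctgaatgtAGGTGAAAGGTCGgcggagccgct

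Genes of glucose use were called more often upward than downward. Of 31 tested genes of glucose uptake, glycolysis and glycogen 7 rose and 2 fell, Fbp2 among the falls, with a median of 0.09 and 26 of the 31 above 0. Pfkfb2, the heart enzyme that makes the activator of glycolysis, had 8.02, 8.17, 7.87, 8.27 and 8.19 in KO hearts, against 7.14, 7.41 and 7.47 in WT hearts (0.76 ± 0.16, limma adjusted p = 0.0017). The insulin-responsive transporter Slc2a4 was 10.96 to 11.18 in KO hearts, against 10.77 to 10.84 in WT hearts (0.25 ± 0.07). The basal transporter Slc2a1 was 8.36 to 8.71 in KO hearts, against 7.86 to 8.22 in WT hearts (0.54 ± 0.16). Ppp1r3c, which directs a phosphatase to glycogen, rose by 0.50 ± 0.14, and 2 genes chosen after their values were seen rose too, the hexokinase Hk1 by 0.45 ± 0.10 and the glycogen synthase Gys1 by 0.39 ± 0.10. These calls depended on single hearts: the count of rises was 1 without WT heart 1, 3 without WT heart 2 and 4 without KO heart 1, 2 or 4, or without KO hearts 4 and 5. Pfkfb2 was called throughout, Hk1 and Gys1 were lost without WT heart 1, and Slc2a4 and Ppp1r3c were lost whichever WT heart was left out. Slc2a4 was lost also without KO heart 1 or 2, Ppp1r3c without KO heart 3 or 4, and Slc2a1 without KO heart 1, 2, 4 or 5 or WT heart 1 or 2. Pdk4, which shuts pyruvate dehydrogenase during fasting, fell, with 11.85, 11.50, 11.70, 11.18 and 11.36 in KO hearts, against 12.44, 12.53 and 12.36 in WT hearts (-0.93 ± 0.24, limma adjusted p = 0.0123). It was not called without WT heart 1 or WT heart 2, nor without KO hearts 4 and 5.

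Branched-chain amino acid breakdown had 3 higher and 0 lower genes of 19 (median 0.05). These were Bcat2, which removes the amino group (0.31 ± 0.07), Bckdhb, a subunit of the branched-chain keto acid dehydrogenase (0.27 ± 0.07), and Mccc1, of leucine breakdown (0.36 ± 0.08). None of them was called without WT heart 3 or with the control arrays alone. Ketone genes were mixed, with 2 of 5 higher and 1 lower. Bdh1, the mitochondrial hydroxybutyrate dehydrogenase, had 10.69 to 11.18 in KO hearts, against 9.92 to 10.86 in WT hearts. Its groups overlapped, and the call (0.55 ± 0.16) was lost when any of KO hearts 1 to 4 or WT heart 2 or 3 was left out. Slc16a7, a transporter of pyruvate and ketone bodies, was dim in both groups (0.76 ± 0.22) and lost the call without KO heart 1, 4 or 5 or WT heart 1 or 2. Acat1, the acetoacetyl-CoA thiolase, fell by 0.38 ± 0.08 and was not called without WT heart 1.

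The widest rises were not gathered in 1 pathway list. Lad1, an anchoring filament protein, had 6.08, 6.65, 6.28, 7.01 and 7.17 in KO hearts, against 4.36, 4.75 and 4.34 in WT hearts (2.15 ± 0.27, limma adjusted p = 4.29e-08). Its highest levels were in KO hearts 4 and 5, those with high atrial markers, and without them the difference was 1.85. Casq1, the calsequestrin of skeletal muscle, had 7.57, 7.47, 7.32, 7.37 and 6.71 in KO hearts, against 5.32, 5.48 and 5.86 in WT hearts (1.74 ± 0.26). Of 11 skeletal muscle markers none was bright, with summed signals of 5.57 to 5.73 in KO and 5.50 to 5.68 in WT hearts. Ndrg4, a gene of neurons and heart muscle, had 10.13 to 10.43 in KO hearts, against 8.36 to 8.67 in WT hearts (1.70 ± 0.14). Pigo, of GPI anchor synthesis, was 1.43 ± 0.15 higher by its brightest probe set, but its 2 other bright probe sets stood at -0.33 and 0.23. Armcx4 (1.20 ± 0.24) and the mitochondrial aldehyde dehydrogenase Aldh1b1 (1.06 ± 0.17) rose, as did Ddah1, which degrades the nitric oxide synthase inhibitor dimethylarginine (1.01 ± 0.20). Like the widest falls, the widest rises were picked among called genes without overlap between the groups. Tmprss13 (1.49 ± 0.30) and the kinase gene Prkcq (1.33 ± 0.29) had dim WT means. Ahnak2 (1.18 ± 0.28) was not called without WT heart 3, and the GABA transaminase Abat (1.13 ± 0.30) not without WT heart 2 or 3. Aldh1l1 (1.00 ± 0.27) was dim in both groups and Adamts3 (0.97 ± 0.28) in WT, and the call was lost without KO heart 1 or 2 or WT heart 1 or 2 for Aldh1l1, and without KO heart 1, 4 or 5 or WT heart 1 or 2 for Adamts3. Of 31 sarcomere genes, Acta1 fell and the slow skeletal troponin gene Tnnt1 rose by 0.48 ± 0.12, against 3.62% called over all tested genes. Tnnt1 was not called without KO heart 2 or WT heart 1 or 2.

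Interferon induced genes were all on 1 side of 0, though most were not called. Of 25 tested genes 4 rose and 0 fell in limma, where 1.55% of all tested genes were higher. Those higher at an unadjusted p under 0.05 were 14, with 0 lower, against 13.1% of all tested genes in either direction. All 25 differences were above 0, and the median was 0.41, against 0.007 over all tested genes. In single hearts the median of the list relative to the WT mean was 0.26 to 0.67 in KO and -0.11 to 0.03 in WT hearts. Ifit2, which inhibits viral translation, had 6.44, 6.68, 6.82, 6.77 and 6.95 in KO hearts, against 5.64, 5.57 and 6.10 in WT hearts (0.96 ± 0.26, limma adjusted p = 0.0234). Irf9, of the interferon transcription complex, had 4.49 to 4.99 in KO hearts, against 3.89 to 3.97 in WT hearts, where it was dim (0.77 ± 0.18). The RNA sensor Ifih1 (0.70 ± 0.20, dim in WT) and the mitochondrial protein Ifi27 (0.39 ± 0.11) were called as well. The groups of Ifi27 overlapped, with KO hearts from 7.69 and WT hearts up to 7.71. Irf9 stayed called in each alternative that tested it, whereas the count of rises was 1 without KO heart 5 or WT heart 2, and 2 without KO heart 2, WT heart 1 or KO hearts 4 and 5. Ifit2 was lost without KO heart 5 or WT heart 1 or 2, Ifih1 without KO heart 2, 3 or 5 or WT heart 1 or 2, and Ifi27 without KO heart 1, 2 or 5 or WT heart 2 or 3. In limma antigen presentation genes had 0 of 12 called (3 at an unadjusted p under 0.05, against 13.1% of all tested genes), all 12 above 0 and a median of 0.29. Macrophage markers had 0 of 9 called in limma (2 at an unadjusted p under 0.05), 8 above 0 and 4 without overlap between the groups. Their median in single hearts relative to the WT mean was 0.11 to 0.27 in KO and -0.08 to 0.08 in WT hearts, so these ranges did not overlap, while their summed signals were 10.95 to 11.30 in KO and 10.97 to 11.05 in WT hearts. In hearts of the other gavages 7 of the 9 were called higher and 1 lower in KO, with a median of 0.33. Of all tested genes 22.5% were called higher and 15.8% lower in those hearts. No lymphocyte or neutrophil marker was bright, and the part of these cells in the interferon values was not tested.

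**Figure D4:**
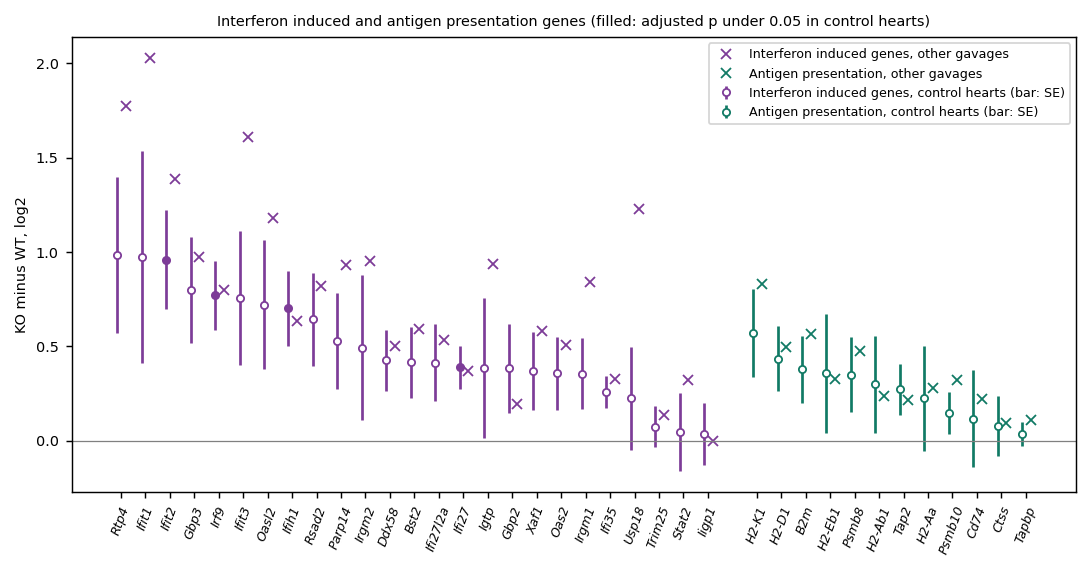
Difference between KO and WT hearts (log2, KO minus WT) for interferon induced and antigen presentation genes, as circles with standard error in control hearts and as crosses for the mean over the 5 other gavages. All 25 interferon differences in control hearts lie above 0, with a median of 0.41, and the median after the other gavages is 0.80.

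The baseline differences were then set against the genotype difference in the 25 KO and 22 WT hearts of the other gavages, none of which is a control array. Both comparisons use the same spread per gene, from 1 fit over all 55 arrays. There 1304 genes were lower (15.8%) and 1853 higher (22.5%) in KO, 3157 in all (38.3%), with many more arrays behind the test. All 298 baseline genes had the same sign there, and 293 were called, 169 of the 170 lower and 124 of the 128 higher. The 5 not called, named after their values were seen, were Esyt2 among the lower and Ank, Ciz1, Dhdds and Slc35b1 among the higher genes. Taken singly, the gavages called 138 of the 170 lower genes again after triolein (3.4% of all tested genes were lower there), 148 after trilinolein (4.56%), 141 after trilinolenin (4.73%), 143 after tridocosahexaenoin (4.08%) and 153 after Wy14643 (4.88%). Of the 128 higher genes 82 were called again after triolein (4.53%), 90 after trilinolein (5.06%), 84 after trilinolenin (4.81%), 90 after tridocosahexaenoin (5.49%) and 89 after Wy14643 (4.39%). All 5 gavages called 121 of the lower and 52 of the higher genes. The difference was smaller after the other gavages for 70 of the 170 lower and for 96 of the 128 higher genes. These counts cannot compare the directions, because the genes were picked by their baseline difference and the sets differed in its size. At baseline 40 of the lower and 13 of the higher genes differed at least 2-fold. For Plin5, Slc25a20, Decr1, Cpt2 and Etfdh each of the 25 treated KO hearts lay below all 22 treated WT hearts. Among the rises, Ndrg4, Acsl6 and Ahnak2 had each of the 25 KO hearts above all WT hearts. By list, 13 of 17 beta-oxidation genes were lower in these hearts, 8 of 10 carnitine genes were lower and 1 higher, 20 of 31 glucose genes were higher and 3 lower, and 23 of 25 interferon genes were higher.

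**Figure D5:**
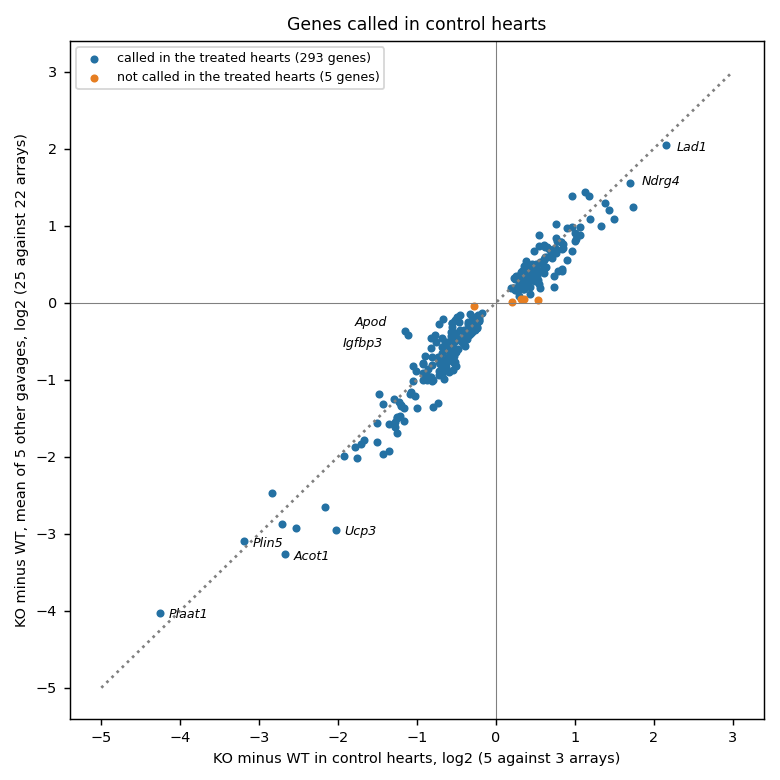
Genotype difference (log2, KO minus WT) in control hearts on the x axis and averaged over the 5 other gavages on the y axis, 1 point for each of the 298 genes called at baseline. All lie on the same side of 0 on both axes, and 293 were called in both.

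A test of the baseline difference minus that after the other gavages called 0 of 8238 genes in limma, with 305 genes at an unadjusted p under 0.05 (3.7%). With the mean of all probe sets per gene it called 1, Slc25a42, the mitochondrial carrier of coenzyme A. By its brightest probe set Slc25a42 differed by -0.03 ± 0.12 at baseline and by -0.60 after the other gavages (limma adjusted p of the contrast 0.358). It was chosen after its values were seen, as was the interferon gene Usp18, which differed by 0.22 ± 0.27 at baseline, where both means were dim, and by 1.23 after the other gavages (limma adjusted p of the contrast 1.00). Mlycd had -0.80 at baseline and -1.36 after the other gavages, also without a call of the contrast. Apod, a lipid-binding apolipoprotein, and Igfbp3, a binding protein of insulin-like growth factors, were also chosen after their values were seen. They had -1.16 and -1.11 at baseline and -0.37 and -0.42 after the other gavages. Both were still called lower there (limma adjusted p = 0.00318 and 7.27e-05), and the contrast was called for neither. Eci2, with the smallest p of the contrast, had -0.52 at baseline and -0.77 after the other gavages (limma adjusted p of the contrast 0.358).

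The response of WT hearts to the agonist differed widely in size among the genes named above. These responses use the same WT control arrays as the baseline difference, so the values are given side by side and are not independent. Wy14643 minus control in KO hearts was 0.28 for Acot1, 0.29 for Angptl4 and -0.26 for Mlycd, against 1.93, 2.17 and 0.78 in WT hearts (limma adjusted p = 0.0122, 0.0409 and 0.0194 in WT hearts). In WT hearts it was 1.36 for Ucp3 and 0.79 for Lgals4, neither called (limma adjusted p = 0.0702 and 0.0549). The wide baseline falls of Plaat1 and Fah stood beside -0.43 and -0.35, and those of Plin5, Fbp2, Decr1 and Etfdh beside 0.48, 0.43, 0.06 and 0.01, none called.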

How the data were processed

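Hearts were profiled on Affymetrix mouse arrays, from 5 µg of RNA with a RIN over 8.0, per the labels' protocols. The deposited log2 values were made with GCRMA 2.2.0, per the submitters' processing notes, and were used as deposited; versions of other upstream software are not given here. Of 45101 probe sets, 34958 carry 1 gene symbol, 932 several and 9211 none in the platform annotation. The probe set with the highest mean stood for a gene, and genes with a linear signal over 20 in 3 or more arrays were tested (8238 of 18194 genes, 45.3%).

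One mean for each of 12 groups was fitted over all 55 arrays in limma 3.58.1 (R 4.3.3), with 43 residual and 3.25 prior degrees of freedom, and p-values were adjusted by Benjamini-Hochberg over all tested genes. The fit was tested on simulated data. The number of arrays, above all the 3 of WT controls, limits the precision. The p-values set a difference against a spread within groups that is pooled for each gene over all 55 arrays, most of them not control arrays. Calls at baseline and after the other gavages share this spread, so they are not fully independent. RNA quality was checked by the difference between 3′ and 5′ control probe sets with two-sided exact permutation tests (smallest possible p 0.0179). It differed between KO and WT by 0.006 for Actb (exact p = 0.893) and 0.04 for Gapdh (exact p = 0.196).

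The members, lists and naming rule were chosen with earlier results of these data known. The rule names index genes, the 14 largest non-overlapping falls and rises, up to 4 called members of each of 38 lists, the nearest neighbours of Ppara and called interactions. It gives 104 genes, and 16 more with full values were chosen after their values were seen. Alternatives were no filter or one at 100, the mean of probe sets, renewed quantile normalization, array weights, a trended and robust prior, the replicate number as a block, a fit of only the groups compared, each control array left out, and, added after the atrial markers were seen, KO hearts 4 and 5 left out together. Replicate numbers do not pair the samples: same-numbered KO and WT control arrays correlated in their deviations at 0.07, 0.17 and -0.23.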

Additional observations from a re-analysis of the deposited data

Results flagged for a closer look

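In 6 of 136 groups of 5 KO control values examined, 1 heart stood apart from the others by Dixon's criterion for 5 values (0.71), and chance gives about 1 in 20. KO heart 1 was high for Acot1, at 4.73, and for Angptl4, at 7.79. KO heart 4 was low for Rxra, at 6.72. KO heart 5 was low for Casq1, at 6.71, for the peroxisome division gene Pex11a, at 5.69, and for the droplet gene Fitm2, at 8.27.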

How the results depend on the processing

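The count of genes called at baseline was 190 with only the groups compared in the fit, 443 with array weights, and 193 to 286 when 1 control heart was left out, lowest without WT heart 2. The contrast of the baseline difference with that after the other gavages gave 1 gene with the mean of all probe sets (Slc25a42) and could not be fitted apart with only the groups compared. Of 102 named genes called at baseline, 55 stayed called in every alternative that tested them and 0 changed sign. With the replicate number as a block the count was 290, and 4 of the named genes were not called (Slc2a4, Adamts3, Lpin1 and Col8a1); the numbers do not pair the samples. Apart from that of Ppargc1a (0.17 ± 0.20), the signs that changed were of differences near 0, and the cause was not tested. With the mean of all probe sets, 5031439G07Rik had 0.110, Tbc1d22a 0.0627 and Slc25a42 0.0784. With renewed quantile normalization Cdpf1 had 0.00888 and the Actb measure of RNA quality -0.00841. With array weights Fam118a had -0.00229, Atxn10 0.00709 and Acaa1a -0.00161. With the replicate block Cdpf1 had 0.0198. Without KO hearts 4 and 5 Ppargc1a had -0.0384, Atxn10 0.000108, Cdpf1 0.0995, Tbc1d22a 0.0102 and Slc25a42 0.0488. When 1 heart was left out, the range was -0.0502 to 0.0372 for 5031439G07Rik, -0.0603 to 0.188 for Fam118a, -0.0533 to 0.0259 for Atxn10, -0.0524 to 0.0530 for Cdpf1, -0.0827 to 0.0348 for Trmu, -0.122 to 0.0148 for Tbc1d22a, -0.139 to 0.0969 for Slc25a42, -0.126 to 0.145 for Acaa1a and -0.0400 to 0.0428 for Actb.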

Other observations

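Smaller groups also held called genes at baseline. Of 24 tested genes of heme and iron 2 rose and 1 fell. Slc40a1, ferroportin, the iron exporter, had 7.03 to 7.71 in KO hearts, against 7.75 to 8.29 in WT hearts (-0.60 ± 0.16), and was not called without KO heart 5 or WT heart 1 or 2. The iron regulators Hfe (0.62 ± 0.15, not called without WT heart 2 or 3) and Hjv (0.35 ± 0.08, not called without WT heart 3) rose. Of 29 antioxidant genes 3 rose, the glutathione transferases Gsta4 (0.39 ± 0.10) and Gstm2 (0.32 ± 0.08) and the peroxidase Gpx1 (0.36 ± 0.08), and Cat fell. Without WT heart 2 none of the rises was called, and without WT heart 3 only Gpx1 was. The small heat shock protein gene Hspb6 had 11.84 to 12.13 in KO hearts, against 12.54 to 12.67 in WT hearts (-0.57 ± 0.07), and was the 1 called gene of 21 chaperones.

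Among 19 ion channel genes the potassium channels Kcna5 (-0.67 ± 0.19) and Kcnv2 (-0.52 ± 0.13, dim in KO) fell and Kcnd2 rose (0.34 ± 0.09). Kcna5 had 6.77, 7.09, 7.24, 7.46 and 8.00 in KO hearts, against 7.53, 8.05 and 8.36 in WT hearts, so its groups overlapped. It was not called without KO heart 1, 2 or 3 or WT heart 2 or 3, Kcnv2 not without WT heart 1 or 2, and Kcnd2 not when KO heart 3 or 4 or any WT heart was left out. Of 35 matrix genes 3 fell, P3h4, Col8a1 (-0.57 ± 0.16) and Plod2 (-0.45 ± 0.12). Col8a1 was lowest in KO hearts 4 and 5, at 6.11 and 6.20, and was not called without either of them or when any WT heart was left out, and Plod2 not without KO heart 1 or 2 or WT heart 2. Of 25 calcium handling genes Casq1 rose and so did Cacna2d1, a calcium channel subunit (0.33 ± 0.08). The groups of Cacna2d1 overlapped, with KO hearts from 9.87 and WT hearts up to 9.91. Cacna2d1 was not called without WT heart 1 or 3, with the mean of all probe sets or with the control arrays alone. Insig1, which holds back sterol synthesis, fell by 0.56 ± 0.15 as the 1 called gene of 16 of cholesterol synthesis, and was not called without KO heart 1 or 3 or when any WT heart was left out. Limma called 0 genes of 7 more lists. At an unadjusted p under 0.05, which 13.1% of all tested genes had, they held 2 of 15 glucocorticoid responsive, 0 of 14 clock, 3 of 19 FoxO, 2 of 19 immediate early, 3 of 19 stress response, 8 of 36 proteasome and 5 of 26 insulin signalling genes.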
